A study of Mus musculus with 10 samples.

Results

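Peroxisomes are organelles that shorten very-long-chain, branched and dicarboxylic fatty acids and make bile acid side chains, with hydrogen peroxide as a by-product. Their biogenesis depends on peroxins, the products of the Pex genes, which insert membrane proteins, import folded matrix enzymes from the cytosol and divide the organelle. In rodent liver many of the genes for peroxisomal oxidation, and some for biogenesis, are targets of PPARA, a nuclear receptor that fasting activates.

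The 39 genes described here were taken by symbol from a list of peroxisome biogenesis and peroxisomal oxidation genes, out of 19764 genes in the count table. All 39 were in the table, and all 39 had enough counts to be tested. They comprised 13 Pex genes, 14 oxidation enzymes and 12 others (acyl transferases, CoA hydrolases, membrane proteins, catalase and a protease). Abcd4 is on the list although its product is known as a lysosomal cobalamin transporter.

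RNA was sequenced from whole livers of female mice in 2 groups of 5 libraries. GRMAC mice carried a floxed glucocorticoid receptor gene and LysM-Cre (+/-), which deletes the gene in macrophages and other myeloid cells, including neutrophils. GRflox mice were littermates with the floxed gene and no Cre. Both groups were fasted from the onset of the active phase (ZT12), and livers were taken 8 h later. The age was not given, all mice analysed here were fasted, and an effect of Cre itself cannot be told apart from that of receptor loss. LysM-Cre is not known to act widely in hepatocytes, the main peroxisome-bearing cells of liver. The comparison therefore asks how the peroxisomal transcripts of whole liver differ when myeloid cells lose the receptor.

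Libraries held 23258884 to 26116916 counts in GRMAC and 25697931 to 27692528 in GRflox, and a count of 3 corresponded to 0.111 to 0.129 CPM (counts scaled to a common library size with TMM factors). The 10 hepatocyte markers summed to 120215 to 143880 CPM in GRMAC and 125298 to 143236 in GRflox, and none of them was at 0. Alb made up most of that sum. Of the 10 markers 7 had a positive log2 fold change and 3 a negative one (median 0.03). Tat, the marker with the lowest p, averaged 1716 ± 715 CPM in GRMAC and 3177 ± 652 CPM in GRflox (log2 fold change −0.89 ± 0.25, edgeR, adjusted p = 0.149), with overlapping ranges. The Kupffer cell gene Cd163 fell in GRMAC (edgeR, adjusted p = 2.55e-05), with 3.07 ± 0.493 CPM in GRMAC and 28.8 ± 7.81 CPM in GRflox (SD, n = 5 each). Without Cd163 the other 11 Kupffer cell markers summed to 293 to 416 CPM in GRMAC and 253 to 334 in GRflox. Of all 12 Kupffer cell markers, Cd163 included, 8 had a positive log2 fold change and 4 a negative one. Cd5l rose in the authors' deposited table (adjusted p = 0.0056), where 1.84% of genes did. It had 67.9 ± 12.46 CPM in GRMAC and 46.2 ± 7.27 CPM in GRflox (edgeR, adjusted p = 0.0928). Every GRMAC library lay above every GRflox library for Cd5l, as in 2.05% of all tested genes. Ranges of endothelial markers (172 to 281 CPM in GRMAC, 213 to 242 in GRflox) and of stellate cell markers (182 to 249.97 CPM in GRMAC, 179.9 to 226 in GRflox) overlapped. Tat and Cd5l were named after their values were seen, and the part of these cells in the results was not tested. In bulk RNA, fewer cells of a type and less RNA per cell cannot be told apart.

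Most of the peroxisomal genes had lower mean levels in GRMAC liver, by small amounts, and none passed the test across the whole table. Of the 39 genes 28 (71.8%) had a negative log2 fold change of GRMAC over GRflox, against 49.8% of all 12558 genes tested. With edgeR's quasi-likelihood test 0 of 39 had an adjusted p under 0.05, where 22 of all genes (0.175%) did. At an unadjusted p under 0.05, edgeR gave 13 of the 39 (33.3%) as lower and 0 as higher, against 7.75% and 8.58% of all genes. The authors' deposited table had 6 of the 39 (15.4%) at adjusted p under 0.05, all lower in GRMAC, against 1.49% of genes lower and 1.84% higher. A DESeq2 refit called the same number, 6, where it called 1.49% of all genes as lower. The refit used the program that the submitters name, on their own counts, so it is not separate evidence. With limma-voom 0 of the 39 were called, against 0.0637% of all genes.

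In 8 of the 39 genes (20.5%) every GRMAC library lay below every GRflox library, and in 0 of 39 every GRMAC library lay above. Over all tested genes these shares were 2.01% and 2.05%. The 8 genes were Acaa1b, Acaa1a, Hsd17b4 and Amacr among the oxidation enzymes, Pex5, Pex10 and Pex19 among the Pex genes, and the membrane transporter gene Abcd3. The genes were measured in the same 10 libraries, so they are not independent of each other.

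**Figure D1:**
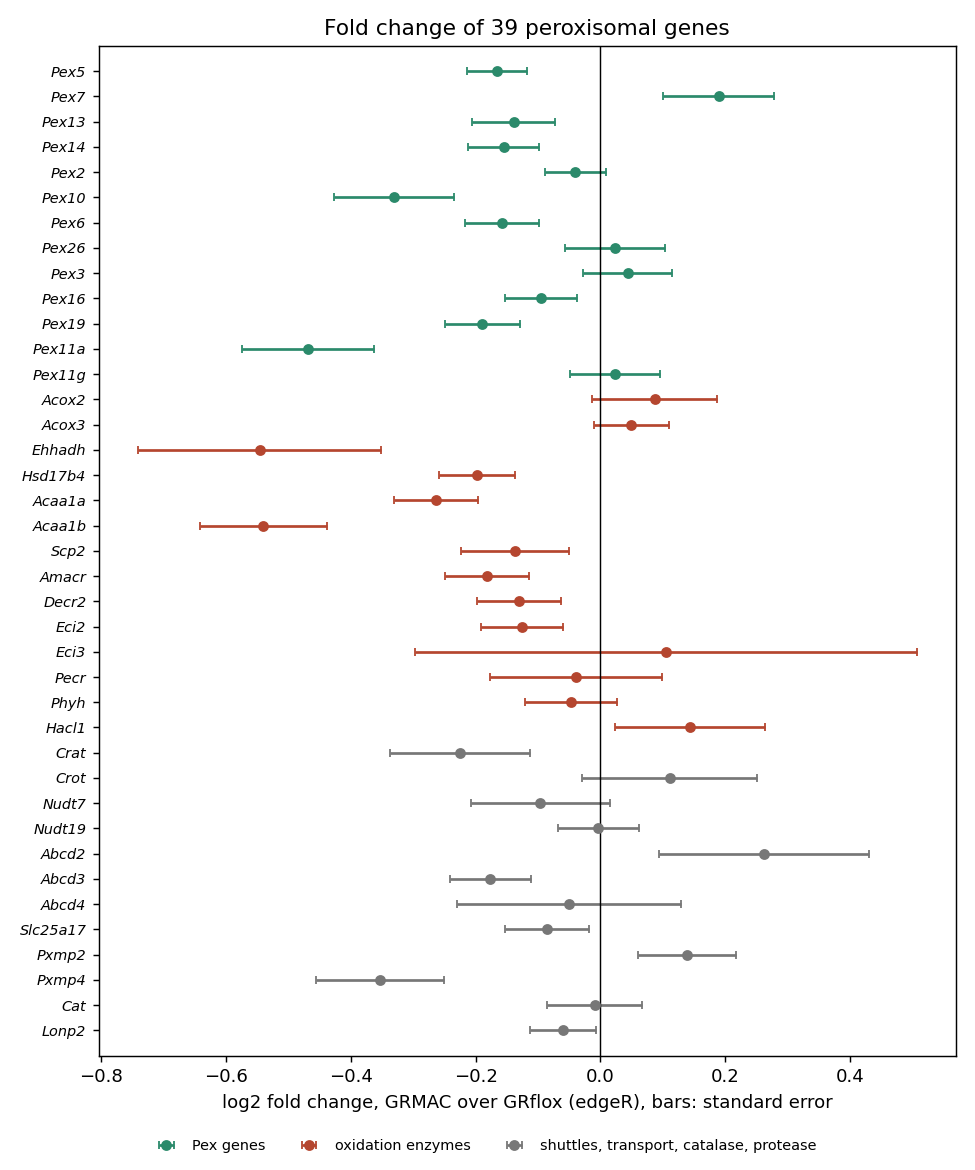
The log2 fold change of GRMAC over GRflox from edgeR (x axis) is plotted for each of the 39 genes (y axis), with bars for the standard error and colours for Pex genes, oxidation enzymes and the others. Ehhadh (−0.55), Acaa1b (−0.54) and Pex11a (−0.47) lie farthest to the left, and Abcd2 (0.26) lies farthest to the right.

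Pex genes and oxidation enzymes had similar medians. The median log2 fold change was −0.14 over the 13 Pex genes, with 9 negative, and −0.13 over the 14 oxidation enzymes, with 10 negative. It was −0.05 over the other 12 genes, −0.10 over all 39 and 0.00 over all tested genes. The enzymes reached from −0.55 to 0.14 and the Pex genes from −0.47 to 0.19, so each class held genes far below its own median as well as genes above 0. At an unadjusted p under 0.05, 6 of the 13 Pex genes and 5 of the 14 enzymes were lower, against 7.75% of all tested genes. The 5 enzymes were all among the 8 classed as beta-oxidation, with 0 of 4 auxiliary and 0 of 2 alpha-oxidation enzymes. Transcripts of the enzymes took 1.35 ± 0.106% of the TMM-scaled counts in GRMAC and 1.72 ± 0.159% in GRflox (SD, n = 5 each). Those of the Pex genes took 0.115 ± 0.00459% in GRMAC and 0.131 ± 0.00747% in GRflox. Acaa1b and Ehhadh together made up 0.718 ± 0.0911% in GRMAC and 1.05 ± 0.14% in GRflox, so these 2 genes carried most of the difference in the share of the enzymes.

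Per kb of transcript, Acaa1b was the most abundant of the 39 genes (1735 CPM per kb in GRMAC and 2521 in GRflox), and Ehhadh came next (1425 CPM per kb in GRMAC and 2079.7 in GRflox). Scp2, Cat and Phyh followed at 739 to 841 CPM per kb in GRMAC and 763 to 925 in GRflox. Peroxins were far less abundant, from 3.83 CPM per kb in GRMAC and 4.81 in GRflox for Pex10 to 105 CPM per kb in GRMAC and 146 in GRflox for Pex11a. Lengths are those of GENCODE transcripts.

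The core of peroxisomal beta-oxidation runs through an acyl-CoA oxidase, a bifunctional hydratase and dehydrogenase, and a thiolase. Acaa1b and Acaa1a encode 2 peroxisomal 3-ketoacyl-CoA thiolases of the mouse, which release acetyl-CoA in the last step. Acaa1b is known as the form that PPARA agonists induce in mouse liver. The genes lie 184200 bases apart on opposite strands of mm10 chromosome 9 (Acaa1b at 119148043 to 119157093, Acaa1a at 119341294 to 119350295). Their transcripts were identical at 93.3% of aligned bases, so reads may be split between them and each count is uncertain. Since the difference between them is read below as a ratio, the 250 bases before each start are shown, with capitals for the CCAAT box on either strand (CCAAT or ATTGG).

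Acaa1b (chr9:119157094-119157343, minus strand): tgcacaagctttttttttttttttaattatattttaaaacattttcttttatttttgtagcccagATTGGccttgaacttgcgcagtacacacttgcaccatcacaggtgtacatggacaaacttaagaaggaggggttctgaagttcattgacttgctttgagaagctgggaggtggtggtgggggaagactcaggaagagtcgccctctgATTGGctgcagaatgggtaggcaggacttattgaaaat
Acaa1a (chr9:119341044-119341293, plus strand): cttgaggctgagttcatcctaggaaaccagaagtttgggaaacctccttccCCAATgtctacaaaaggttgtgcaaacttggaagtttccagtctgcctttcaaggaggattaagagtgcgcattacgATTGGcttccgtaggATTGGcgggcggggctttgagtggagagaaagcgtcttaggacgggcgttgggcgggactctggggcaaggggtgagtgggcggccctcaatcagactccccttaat

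These windows (RefSeq, GRCm38.p6) were identical at 58.2% of aligned bases, well below the share in the transcripts. The Acaa1b window held 2 CCAAT boxes, the nearer one 38 bases before the start, and the Acaa1a window held 3, the nearest one 107 bases before it. A CCAAT box was in the 250 bases before the start in 33.8% of all 32851 RefSeq windows, and in 15 of the 38 windows of the 31 members that had one. A PPARA response element is a direct repeat, AGGTCANAGGTCA, searched on both strands, also as AGGNCANAGGNCA. Neither was in any of the 38 windows of those 31 members, where 0.0335% and 0.338% of all windows held one. The single hexamer AGGTCA, which the first repeat contains and the second can contain, was in the windows of Cat, Pex11g and Scp2 and in 14.0% of all windows. No match says only that these letters are not in these 250 bases.

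Acaa1b had 2917, 3593, 2587, 2458 and 3094 CPM in GRMAC, against 4535, 4589, 4312, 4037 and 3819.8 CPM in GRflox. Every GRMAC library was below the lowest GRflox library. The log2 fold change was −0.54 ± 0.10 (SE), which did not pass over all genes (edgeR, adjusted p = 0.0543). Acaa1b fell in the authors' deposited table (log2 fold change −0.54, adjusted p = 0.000112). Without GRMAC 2, the GRMAC library with the highest level, edgeR gave −0.62 (adjusted p = 0.0175), and over all alternatives the adjusted p ran from 0.000112 to 0.113. Acaa1a had 281, 289, 239.7, 284 and 277 CPM in GRMAC, against 346, 315, 308, 323 and 353 CPM in GRflox, again with no overlap. Its log2 fold change was −0.26 ± 0.07 (edgeR, adjusted p = 0.0933), and it fell in the authors' deposited table (adjusted p = 0.0101).

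The bifunctional enzymes come as L and D forms. Ehhadh, the L form, had 4592, 3258, 3319, 5938 and 4130.0 CPM in GRMAC, against 6762, 5479, 7419, 4158 and 7178 CPM in GRflox. Here the groups overlapped, since GRflox 4 was below 2 GRMAC libraries and GRMAC 4 was above 2 GRflox libraries. Its log2 fold change was the largest of the 39 genes and also had a large error, −0.55 ± 0.19 (edgeR, adjusted p = 0.2). In the authors' deposited table Ehhadh did not pass (adjusted p = 0.0654). Hsd17b4, the D form that also serves bile acid synthesis, had 735, 724, 711, 766 and 721 CPM in GRMAC, against 872, 835, 815, 775 and 897 CPM in GRflox. Its difference was smaller, −0.20 ± 0.06 (edgeR, adjusted p = 0.149), and the groups did not overlap. Hsd17b4 fell in the authors' deposited table (adjusted p = 0.0118).

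The oxidases on the list lay close to 0. Acox2, which acts on bile acid precursors and branched fatty acids, averaged 181 ± 27.4 CPM in GRMAC and 170.1 ± 14.6 CPM in GRflox (SD, n = 5 each), a log2 fold change of 0.09 ± 0.10. Acox3, another branched-chain acyl-CoA oxidase, averaged 32.5 ± 1.83 CPM in GRMAC and 31.4 ± 1.72 CPM in GRflox (0.05 ± 0.06 on the log2 scale). Amacr, the racemase that prepares branched substrates for oxidation, had 136, 144, 121, 145 and 146 CPM in GRMAC, against 173, 161, 155, 150.3 and 147 CPM in GRflox, with no overlap. Its log2 fold change was −0.18 ± 0.07 (edgeR, adjusted p = 0.199). Scp2, whose longer form is the thiolase for branched chains, averaged 2220.5 ± 252.2 CPM in GRMAC and 2441 ± 190.4 CPM in GRflox (log2 fold change −0.14 ± 0.09).

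**Figure D2:**
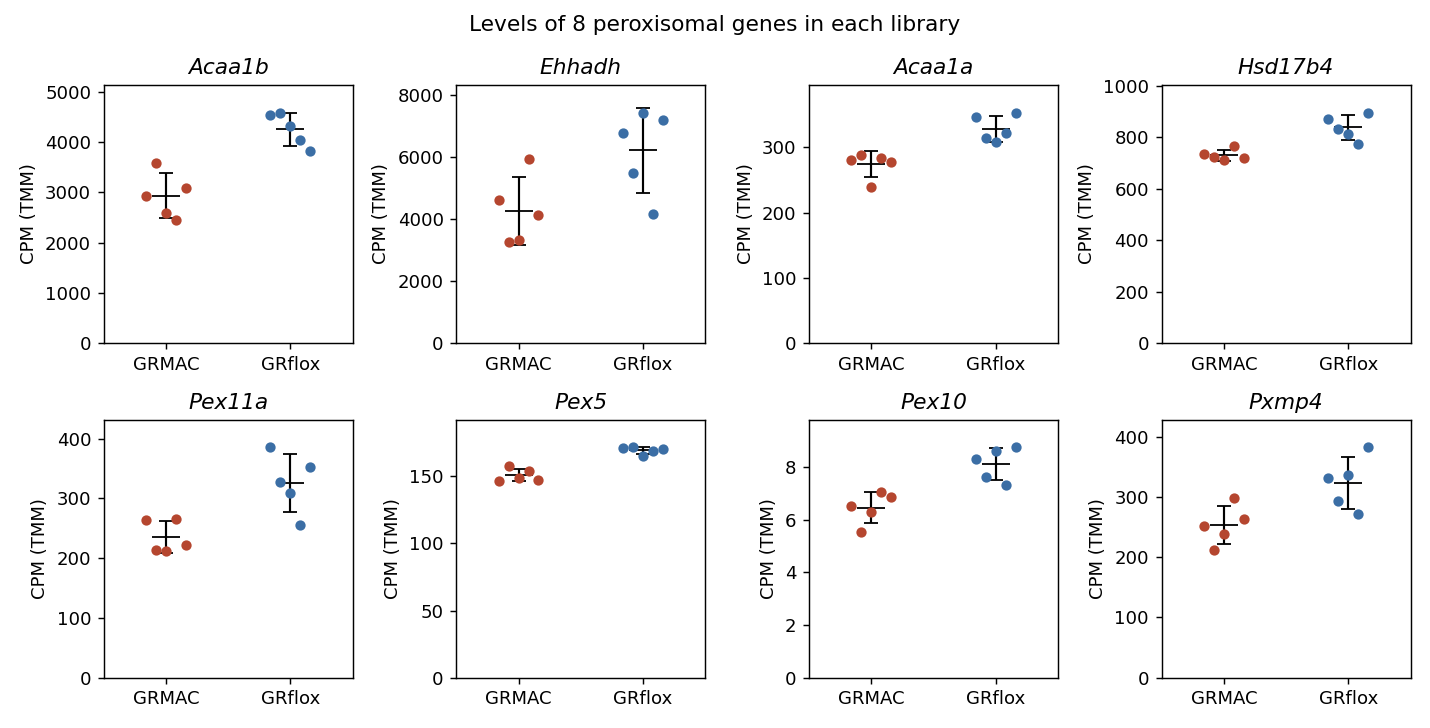
TMM-scaled CPM (y axes, from 0) of 8 genes is plotted for each GRMAC library (left) and each GRflox library (right), with the mean and SD as bars. The points of Acaa1b, Acaa1a, Hsd17b4, Pex5 and Pex10 do not overlap between the genotypes, whereas those of Ehhadh, Pex11a and Pxmp4 do.

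Auxiliary enzymes, which handle double bonds, showed smaller differences, and none of the 4 passed a threshold of 0.05 even before adjustment. Decr2, a 2,4-dienoyl-CoA reductase, had 302, 313, 249.5, 304 and 287 CPM in GRMAC, against 316, 301, 322, 326 and 326 CPM in GRflox (log2 fold change −0.13 ± 0.07, edgeR, adjusted p = 0.353). Eci2, an enoyl-CoA isomerase, had 349, 413, 363, 342 and 350.0 CPM in GRMAC, against 397, 400.3, 424, 378 and 383 CPM in GRflox (log2 fold change −0.13 ± 0.07). The ranges of both genes overlapped between genotypes. The neighbour of Eci2, Eci3, 13938 bases away on chromosome 13, was the least abundant of the 39 genes, with 0.689, 0.731, 0.635, 0.538 and 0.782 CPM in GRMAC, against 0.741, 0.376, 0.342, 0.263 and 1.40 CPM in GRflox (log2 fold change 0.11 ± 0.40). Eci3 and Eci2 were identical at 87.0% of aligned transcript bases, so their counts are uncertain. Pecr, a trans-2-enoyl-CoA reductase, averaged 148 ± 26.1 CPM in GRMAC and 152 ± 26.6 CPM in GRflox, a log2 fold change of −0.04 ± 0.14.

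Alpha-oxidation removes 1 carbon from phytanic acid. Phyh, its hydroxylase, averaged 1062 ± 87.2 CPM in GRMAC and 1097 ± 71.0 CPM in GRflox (log2 fold change −0.05 ± 0.07). Hacl1, the lyase of the next step, had 997, 900.4, 796, 890.4 and 995 CPM in GRMAC, against 968, 883, 899.6, 577 and 815 CPM in GRflox. GRflox 4 had the lowest value of all libraries for Hacl1, and the log2 fold change was 0.14 ± 0.12 (edgeR, adjusted p = 0.59). Without GRflox 4 the log2 fold change of Hacl1 was 0.04.

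Among peroxins the lowest adjusted p belonged to Pex11a, which elongates and divides the peroxisome membrane and is a PPARA target in mouse liver. The 250 bases before its RefSeq start on chromosome 7, shown because it led the Pex genes, held no CCAAT box and none of the PPARA motifs above. In the count table the gene, on the minus strand, starts at 79743025, whereas this window ends at 79743132. The bases between these positions were not searched.

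Pex11a (chr7:79743132-79743381, minus strand): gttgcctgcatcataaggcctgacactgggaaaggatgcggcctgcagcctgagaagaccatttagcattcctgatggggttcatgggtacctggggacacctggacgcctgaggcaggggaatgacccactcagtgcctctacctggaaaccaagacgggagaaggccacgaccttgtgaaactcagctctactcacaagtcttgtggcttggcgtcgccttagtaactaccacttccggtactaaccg

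Pex11a had 264, 214, 212, 266 and 222 CPM in GRMAC, against 386, 327, 309, 256 and 353 CPM in GRflox. GRflox 4 (256) lay below GRMAC 1 and GRMAC 4, and the other 4 GRflox libraries lay above all GRMAC libraries. The log2 fold change was −0.47 ± 0.11 (edgeR, adjusted p = 0.0732). Without GRflox 4 it was −0.55 and passed (edgeR, adjusted p = 0.0435), and over all alternatives the adjusted p ran from 0.00485 to 0.172. It fell in the authors' deposited table (adjusted p = 0.00485). Pex11g, a related division peroxin, had 29.3, 30.0, 26.4, 26.2 and 25.0 CPM in GRMAC, against 28.3, 29.4, 26.4, 24.0 and 26.6 CPM in GRflox, and its log2 fold change was 0.02 ± 0.07.

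Of the import machinery, Pex5, the receptor for the common C-terminal targeting signal, had the smallest SD relative to its mean of the 39 genes in GRflox. It had 147, 157, 149, 154 and 147 CPM in GRMAC, against 171, 172, 165, 169 and 170.4 CPM in GRflox. The groups did not overlap, and the log2 fold change was −0.17 ± 0.05 (edgeR, adjusted p = 0.129). Pex5 fell in the authors' deposited table (adjusted p = 0.00402). Pex7, the receptor for the N-terminal signal that the thiolases carry, averaged 68.7 ± 8.05 CPM in GRMAC and 60.3 ± 6.37 CPM in GRflox, a positive log2 fold change of 0.19 ± 0.09 (edgeR, adjusted p = 0.308), and of 0.10 after correction for GC content and length. The difference between the 2 receptors was not tested.

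Receptors dock at Pex13 and Pex14. Pex14 had 83.3, 82.6, 76.3, 89.1 and 75.7 CPM in GRMAC, against 95.8, 88.3, 89.3, 87.2 and 92.5 CPM in GRflox, with GRMAC 4 inside the GRflox range (log2 fold change −0.15 ± 0.06, edgeR, adjusted p = 0.201). Pex13 averaged 96.4 ± 5.95 CPM in GRMAC and 106 ± 8.68 CPM in GRflox (−0.14 ± 0.07 on the log2 scale, −0.25 after that correction). It overlaps Pus10 on the other strand by 262 bases, and the strand setting of the counts is not given in the sources used here.

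Pex2 and Pex10 belong to the ubiquitin ligase that marks the receptor for export. Pex10, the lowest of the 13 Pex genes per kb, had 6.51, 5.54, 6.31, 7.07 and 6.87 CPM in GRMAC, against 8.31, 7.63, 8.60, 7.32 and 8.75 CPM in GRflox, with no overlap. Its log2 fold change was −0.33 ± 0.10 (edgeR, adjusted p = 0.131). Pex2 averaged 42.6 ± 1.98 CPM in GRMAC and 43.8 ± 0.971 CPM in GRflox (log2 fold change −0.04 ± 0.05).

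Pex6, of the ATPase that pulls the receptor out, had 119.7, 124, 116, 107 and 107 CPM in GRMAC, against 136, 132, 122, 126 and 124 CPM in GRflox, with GRMAC 2 above GRflox 3 and GRflox 5 (log2 fold change −0.16 ± 0.06, edgeR, adjusted p = 0.204). Its membrane anchor Pex26 averaged 32.1 ± 3.16 CPM in GRMAC and 31.6 ± 2.90 CPM in GRflox (log2 fold change 0.02 ± 0.08). Among the peroxins that build the membrane, Pex19, the chaperone of membrane proteins, had 175, 168, 151, 176 and 166 CPM in GRMAC, against 201, 184, 197, 177 and 194 CPM in GRflox. The lowest GRflox library was just above the highest GRMAC library, and the log2 fold change was −0.19 ± 0.06 (edgeR, adjusted p = 0.158). Pex16 averaged 86.2 ± 4.02 CPM in GRMAC and 92.1 ± 5.40 CPM in GRflox (log2 fold change −0.10 ± 0.06), and Pex3, the docking site of Pex19, averaged 36.7 ± 3.85 CPM in GRMAC and 35.6 ± 1.26 CPM in GRflox (0.04 ± 0.07).

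Membrane proteins differed among themselves. Pxmp4, which encodes a peroxisomal membrane protein, had 252.1, 212, 238, 298 and 264 CPM in GRMAC, against 332, 293, 336, 271 and 382 CPM in GRflox. GRMAC 4 (298) lay above GRflox 2 and GRflox 4, and the log2 fold change was −0.35 ± 0.10 (edgeR, adjusted p = 0.131). Pxmp4 fell in the authors' deposited table (adjusted p = 0.0429), and over all alternatives its adjusted p ran from 0.0429 to 0.275. Abcd3, the abundant transporter of bile acid precursors and dicarboxylic acids, had 965, 935, 887, 1014 and 971 CPM in GRMAC, against 1058, 1028, 1158, 1020.1 and 1128 CPM in GRflox, with no overlap (log2 fold change −0.18 ± 0.06, edgeR, adjusted p = 0.2). Abcd2, a transporter of very-long-chain acyl-CoA, had 64.2, 60.5, 65.8, 44.4 and 76.7 CPM in GRMAC, against 38.7, 63.8, 61.5, 52.5 and 43.2 CPM in GRflox. Its spread within each genotype was wide, and the log2 fold change was 0.26 ± 0.17 (edgeR, adjusted p = 0.474). Pxmp2, a membrane channel, averaged 83.5 ± 7.73 CPM in GRMAC and 75.9 ± 7.47 CPM in GRflox (log2 fold change 0.14 ± 0.08). Abcd4 was at −0.05 ± 0.18 and Slc25a17, a carrier of CoA and other cofactors, at −0.08 ± 0.07 on the log2 scale.

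The remaining members were near 0 or varied widely. Crat, a carnitine acetyltransferase, had 303, 261, 255, 364 and 286 CPM in GRMAC, against 381, 338, 356, 268 and 374 CPM in GRflox (log2 fold change −0.23 ± 0.11, edgeR, adjusted p = 0.334). Crot, which makes carnitine esters of medium-chain products for export, averaged 874 ± 219.8 CPM in GRMAC and 809 ± 38.8 CPM in GRflox, and its GRMAC libraries ranged from 682 to 1129 CPM. The CoA hydrolase gene Nudt7 had 44.4, 60.5, 38.0, 50.9 and 52.7 CPM in GRMAC, against 48.5, 51.8, 49.1, 52.5 and 61.7 CPM in GRflox (log2 fold change −0.10 ± 0.11). Nudt19, of the same family, was at 53.6 ± 2.65 CPM in GRMAC and 53.7 ± 4.90 CPM in GRflox, a log2 fold change of 0.00 to 2 decimals (SE 0.07).

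Cat, which encodes the catalase that removes the hydrogen peroxide of oxidation, averaged 2077 ± 107 CPM in GRMAC and 2089 ± 199 CPM in GRflox, with a log2 fold change of −0.01 ± 0.08 (edgeR, adjusted p = 0.972). Its sign changed with upper-quartile scaling and with library totals, which moved the median of all genes by about as much (to 0.013 and 0.022). Lonp2, the protease of the matrix, had 358, 359, 342, 368 and 352 CPM in GRMAC, against 382, 366, 358, 360.5 and 388 CPM in GRflox (log2 fold change −0.06 ± 0.05).

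**Figure D3:**
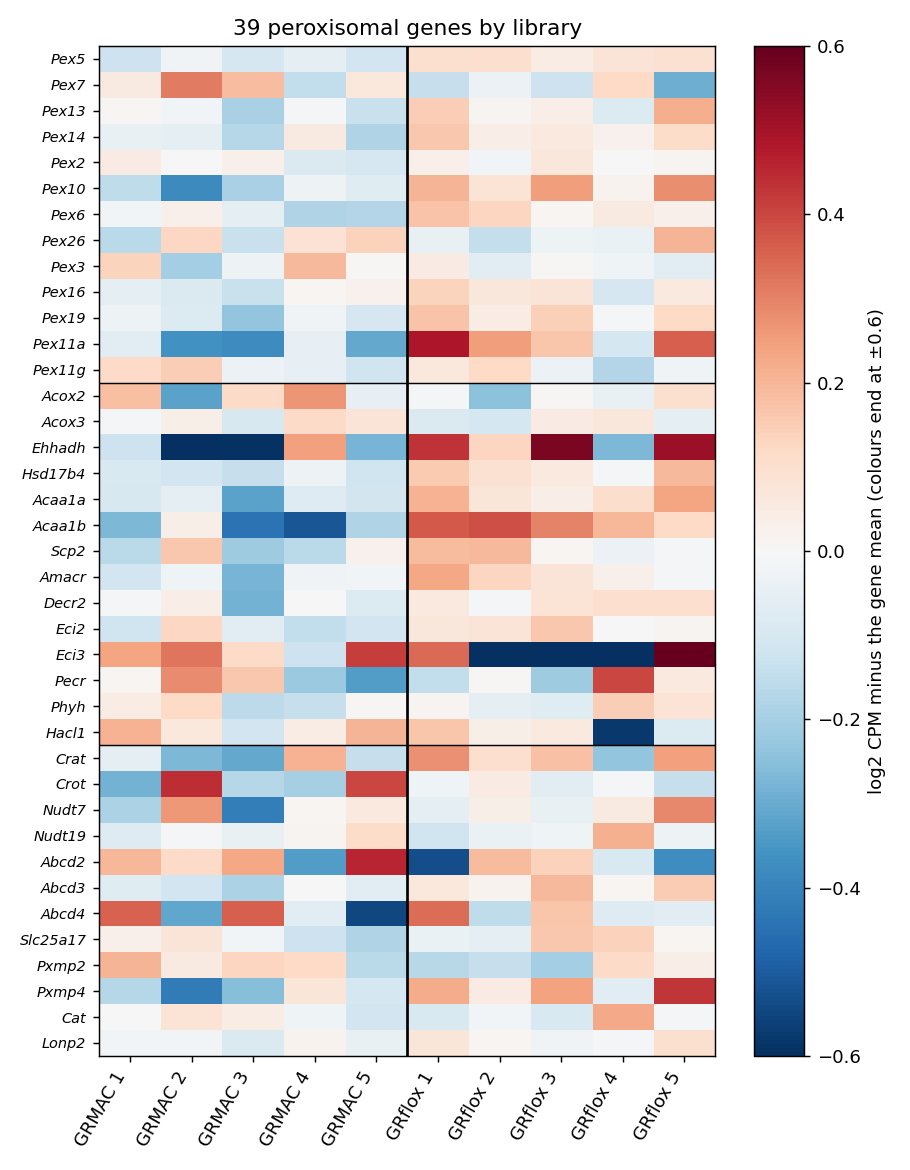
Rows are the 39 genes, in the order Pex genes, oxidation enzymes and others, and columns are the 5 GRMAC libraries and then the 5 GRflox libraries. Colour is the log2 CPM minus the mean of the gene over the 10 libraries, and the darkest colours also stand for values beyond the scale. GRMAC 3 and GRflox 4 each held the lowest value of their genotype in 16 of the 39 genes.

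Libraries of 1 genotype were not alike in these genes. GRMAC 3 had the lowest value of its genotype in 16 of the 39 genes, whereas GRMAC 2 had the highest in 15 and GRMAC 4 in 13. In GRflox, GRflox 4 was lowest in 16, GRflox 5 was highest in 11 and GRflox 1 in 10. The median over the 13 Pex genes of log2 CPM minus the gene mean ran from −0.13 to −0.02 in GRMAC and from −0.01 to 0.13 in GRflox. Over the 14 oxidation enzymes it ran from −0.15 to 0.04 in GRMAC and from 0.01 to 0.16 in GRflox, with GRMAC 2 above GRflox 4.

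Related genes measured in the same library were compared as a ratio, in which library scaling largely cancels. The log2 CPM of Pex11a minus that of Pex11g averaged 3.10 ± 0.19 in GRMAC and 3.58 ± 0.15 in GRflox (SD, n = 5 each), with no overlap. The difference of −0.49 passed a two-sided exact permutation test (p = 0.00794, the smallest possible, adjusted p = 0.0317 over 4 pairs). Pex11g itself differed little (log2 fold change 0.02), so this ratio largely repeats the fold change of Pex11a (−0.47). The adjustment was over 4 pairs rather than all genes, over which Pex11a did not pass (edgeR, adjusted p = 0.0732). The ratio is therefore not separate evidence for Pex11a. Without GRflox 1, 2, 3 or 4 the difference in this ratio was −0.44, −0.52, −0.50 and −0.53, and the adjusted p was 0.0635 in each case (exact permutation test). Without GRflox 5 or any 1 GRMAC library it still passed. Leaving out a library cannot make these 2 groups overlap. For every pair it leaves fewer assignments, so p moves in coarser steps. Passing or failing without 1 library therefore cannot show that a ratio depends on that library. Acaa1b minus Acaa1a averaged 3.41 ± 0.19 in GRMAC and 3.69 ± 0.17 in GRflox. That difference of −0.29 did not pass after adjustment (exact permutation test, p = 0.0317, adjusted p = 0.0635). Without GRMAC 2 it was −0.34 and without GRflox 5 it was −0.35, and both passed (exact permutation test, adjusted p = 0.0476 and adjusted p = 0.0317). Without each of the other libraries in turn the adjusted p was 0.0794 to 0.127 (exact permutation test).

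Abcd2 minus Abcd3 averaged −3.96 ± 0.33 in GRMAC and −4.40 ± 0.33 in GRflox, a difference of 0.44 (exact permutation test, p = 0.0714, adjusted p = 0.0952). Without GRMAC 4 it was 0.58 and passed (exact permutation test, adjusted p = 0.0317), whereas without each other library it was 0.35 to 0.54 with adjusted p of 0.0794 to 0.198. Eci3 minus Eci2 averaged −8.92 ± 0.17 in GRMAC and −9.36 ± 0.89 in GRflox. Its difference of 0.44 had p = 0.294 and adjusted p = 0.294 (exact permutation test), and without GRflox 5 it was 0.78 (exact permutation test, adjusted p = 0.0423). Without each other library it was 0.25 to 0.55, with adjusted p of 0.198 to 0.524 (exact permutation test).

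**Figure D4:**
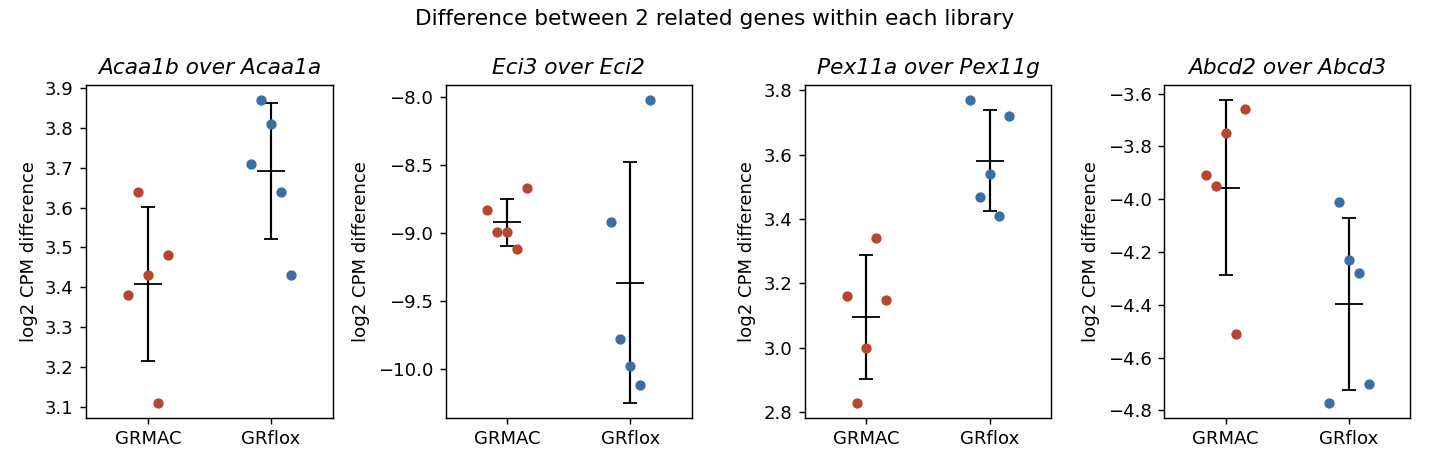
The log2 CPM of the gene named first minus that of its relative (y axes) is plotted for each GRMAC library (left) and each GRflox library (right), with mean and SD. The groups are apart for Pex11a over Pex11g (2.83 to 3.34 in GRMAC, 3.41 to 3.77 in GRflox) and overlap for the other 3 pairs.

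Genes of the same organelle that are not members gave a mixed picture. Of 14 other genes of peroxisomal oxidation and its acyl-CoA supply all 14 had a negative log2 fold change (median −0.17), 4 were lower at an unadjusted p under 0.05, and 0 passed over all genes with edgeR. Over all tested genes 49.8% were negative and 7.75% were lower at that p. Acot8, a peroxisomal thioesterase, had the lowest p, with 41.0 ± 4.34 CPM in GRMAC and 51.9 ± 5.45 CPM in GRflox (SD, n = 5 each; log2 fold change −0.34 ± 0.08, edgeR, adjusted p = 0.0889), and it was the 1 gene of the 14 that fell in the authors' deposited table (adjusted p = 0.0206), where 1.49% of genes did. Of 11 other biogenesis and division genes 7 were negative (median −0.04). With edgeR 0 of the 11 passed, and 1 was lower and 2 were higher at an unadjusted p under 0.05. Usp9x, a deubiquitinase that acts on Pex5, had the lowest p, with 93.0 ± 7.16 CPM in GRMAC and 75.8 ± 6.98 CPM in GRflox (log2 fold change 0.30 ± 0.07, edgeR, adjusted p = 0.088). Usp9x rose in the authors' deposited table (adjusted p = 0.0161).

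With edgeR, Ppara, Rxra, Ppargc1a, Nr3c1 and Lyz2 did not pass the threshold. Ppara averaged 639.7 ± 25.6 CPM in GRMAC and 671 ± 35.1 CPM in GRflox (log2 fold change −0.07 ± 0.06, edgeR, adjusted p = 0.607). Its partner Rxra averaged 464 ± 28.1 CPM in GRMAC and 482 ± 16.3 CPM in GRflox (log2 fold change −0.05 ± 0.06), and the coactivator gene Ppargc1a averaged 19.1 ± 5.72 CPM in GRMAC and 22.9 ± 2.57 CPM in GRflox (−0.26 ± 0.17). Nr3c1, the floxed receptor gene, averaged 82.5 ± 7.75 CPM in GRMAC and 72.8 ± 7.14 CPM in GRflox (log2 fold change 0.18 ± 0.08, edgeR, adjusted p = 0.277), a count per gene that cannot show deletion in a small share of cells. Lyz2, the gene that carries the Cre of LysM-Cre, averaged 21.1 ± 5.21 CPM in GRMAC and 32.3 ± 5.51 CPM in GRflox (log2 fold change −0.62 ± 0.16, edgeR, adjusted p = 0.114), and it fell in the authors' deposited table (adjusted p = 0.00907).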

How the data were processed

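The authors deposited a table of raw read counts per gene and a table of their own comparison, which holds log2 fold changes and adjusted p-values per the file headers. HISAT2 2.1.0, DESeq2 1.24.0 and mm10 are named in the submitters' processing notes. The counting program and strand setting are not given in the sources used here. Columns were matched to samples by genotype and number, and 10 columns of values per library in the second table were not used. The labels number the libraries without stating separate animals, so p-values measure the spread between these libraries, which may be technical.

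Genes were filtered with filterByExpr, which left 12558 of 19764 and removed 0.0348% of counts, scaled by TMM and tested with edgeR 4.0.16 (quasi-likelihood, robust, R 4.3.3), with Benjamini-Hochberg adjustment over all tested genes. DESeq2 1.42.0 and limma 3.58.1 (voom) were alternatives, as were other scalings, other filters, a block for the replicate number, a correction for GC content and length, and leaving out each library. Standard errors come from the F statistic. Log2 CPM used a prior count of 2. The test was checked on simulated data. The level given for 3 counts covers counting error only.

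Members and lists were chosen with earlier results of these data known. Values of every library are given for the 10 members with the lowest p, for 4 pairs of related genes and for the member with the lowest p of each role; Ehhadh was added for its fold change after its values were seen. RefSeq promoter windows (GRCm38.p6) matched 31 of 39 members, by symbol. Coordinates are those of the table, counted from 1. Some genes of the lists are not reported here by name.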

Additional observations from a re-analysis of the deposited data

Results flagged for a closer look

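Among 86 groups of 5 values (39 genes and 4 ratios in each genotype), 4 held a library far from the other 4, and chance gives about 4 (1 in 20). Acaa1a was at 239.7 CPM in GRMAC 3, against 277 to 289 CPM in the other GRMAC libraries. Eci2 was at 413 CPM in GRMAC 2, against 342 to 363 CPM in the others. In GRflox 4, Nudt19 was at 62.1 CPM, against 49.3 to 52.5 CPM in the other GRflox libraries, and Cat was at 2432 CPM, against 1948 to 2064 CPM. No cause was tested.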

How the results depend on the processing

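Of 779 values of the 39 log2 fold changes under 20 alternatives, 740 kept their direction and their side of the threshold, 11 passed it, and 28, in 8 genes, changed sign. The class medians moved by less than the spread between libraries in every alternative run. The count of members past the threshold, 0 with edgeR, was 6 with DESeq2, 1 with upper-quartile scaling, 1 with no filter, 1 with the replicate block (Acaa1b each time) and 3 at adjusted p under 0.1, and 0 to 1 without 1 library. Other peroxisomal genes past the threshold numbered 5 with DESeq2 and 4 at adjusted p under 0.1, with 0 by edgeR and by limma-voom at 0.05. Over all genes 22 became 424 with DESeq2, 8 with limma-voom, 8 without robust estimation, 34 with no filter, 81 with the replicate block (in the same edgeR fit), 9 with the GC and length correction and 241 at adjusted p under 0.1. Without 1 library the count was 5 to 47: 9, 6, 5 and 5 without GRflox 1, 2, 3 and 5, and 10, 14, 10 and 47 without GRMAC 1, 3, 4 and 5. The cause was not tested. Same-numbered libraries share only a number in the labels, which state no pairing. Of 5 correlations of their deviations 2 were over 0.1. In addition, 2 GRMAC and 2 GRflox libraries had their highest correlation with the library of their own number. These correlations cannot show whether the libraries were paired by design.

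The 8 genes that changed sign had main values between −0.05 and 0.11. Nudt19 was at 0.000 with limma-voom, 0.009 with upper-quartile scaling, 0.018 with library totals, 0.002 with the 1 CPM filter, 0.011 with the GC and length correction and −0.032 to 0.055 without 1 library. Cat was at 0.003 with upper-quartile scaling, 0.012 with library totals and −0.033 to 0.052 without 1 library. Without 1 library Pex26 ranged from −0.008 to 0.081, Pex3 from −0.001 to 0.1, Pex11g from −0.015 to 0.061, Eci3 from −0.089 to 0.646, Pecr from −0.116 to 0.068 and Abcd4 from −0.151 to 0.060. Ratio differences without 1 library ranged as follows: Pex11a over Pex11g from −0.548 to −0.420, Acaa1b over Acaa1a from −0.350 to −0.212, Abcd2 over Abcd3 from 0.350 to 0.581 and Eci3 over Eci2 from 0.254 to 0.779. With the GC and length correction Acaa1b was at −0.49 (edgeR, adjusted p = 0.0673) and Pex11a at −0.48 (edgeR, adjusted p = 0.0912). That correction moved Pex7 to 0.101, Pex13 to −0.254, Pex2 to −0.107, Pex16 to −0.039, Crot to 0.056 and Abcd2 to 0.168, each by over 1.5 times. Depth limits Eci3, the least abundant of the 39 genes.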

Other observations

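Other enzymes of the peroxisome had log2 fold changes of both signs. Of 19 tested enzymes and proteases of ether lipid, bile acid, amino acid, purine and redox metabolism, 13 had a negative log2 fold change (median −0.05), 4 were lower at an unadjusted p under 0.05, and 0 passed over all genes with edgeR. Over all tested genes 49.8% were negative and 7.75% were lower at that p. Of the 19, 3 fell in the authors' deposited table, where 1.49% of genes did. Ephx2, a peroxisomal and cytosolic epoxide hydrolase, had 1146 ± 69.1 CPM in GRMAC and 1376 ± 66.8 CPM in GRflox (SD, n = 5 each; log2 fold change −0.26 ± 0.07, edgeR, adjusted p = 0.0914) and adjusted p = 0.00195 in the authors' deposited table. Gstk1, a glutathione transferase of mitochondria and peroxisomes, had 71.8 ± 4.51 CPM in GRMAC and 86.1 ± 7.58 CPM in GRflox (log2 fold change −0.26 ± 0.07; authors' deposited table, adjusted p = 0.0244). In Ephx2 and Gstk1 every GRMAC library lay below every GRflox library. Uox, urate oxidase, averaged 1007 ± 96.1 CPM in GRMAC and 1038 ± 72.2 CPM in GRflox (log2 fold change −0.04 ± 0.08), and Hao1, the hydroxyacid oxidase that makes glyoxylate, averaged 112 ± 25.1 CPM in GRMAC and 86.4 ± 18.5 CPM in GRflox (log2 fold change 0.38 ± 0.19, edgeR, adjusted p = 0.344). Gstk1, Uox and Hao1 were named after their values were seen.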
